A study of Mus musculus with 6 samples.

Results

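Mitochondrial ribosomal protein genes were examined in C2C12 myotubes treated with the cytokine TWEAK. The members were the protein-coding genes of the deposited table whose symbols begin with Mrpl or Mrps followed by a number, which gave 78 of 49592 listed genes and of 21664 protein-coding ones. By name, 49 belong to the large subunit (Mrpl) and 29 to the small subunit (Mrps). C2C12 cells are mouse myoblasts of an established line, which stop dividing and fuse in low serum. Cells grown in 10% fetal bovine serum spent 3 days in 2% horse serum, and the resulting myotubes then either received TWEAK at 10 ng/ml for 12 h (3 libraries) or were left untreated (3 libraries). The libraries were made from poly(A) RNA and are numbered by trial. Whether the trials were separate cultures is not in the labels, and the p-values therefore reflect only how far these libraries spread. The comparison addresses what TWEAK does to gene expression during fusion, and mitochondrial translation is not named in the series title.

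Mitochondria keep a small genome of their own, and its proteins, all parts of the respiratory chain and the ATP synthase, are made by a dedicated ribosome inside the organelle. The ribosomal RNAs of this machine come from the mitochondrial genome, while every one of its proteins is encoded in the nucleus, made in the cytosol and imported. Some of these proteins descend from bacterial ribosomal proteins, and others have no bacterial counterpart and were added in the mitochondrial lineage. The small subunit reads the messenger RNA, and the large subunit joins amino acids and passes the new chain through an exit tunnel at the inner membrane. Skeletal muscle depends heavily on respiration, and defects in several of these genes cause mitochondrial disease in humans.

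The libraries held 29793589 to 40667739 reads recovered from the FPKM values (fragments per kilobase of gene, scaled for depth), and the members took 0.2907%, 0.3076% and 0.333% of them with TWEAK, against 0.2747%, 0.2702% and 0.2771% untreated. Each member had 393 to 3213 reads in each library. Counting error alone gave the members' log2 differences an SE of 0.0221 to 0.0499, a median of 0.423 times the fitted SE (0.262 to 0.686). Myotube genes were abundant in both groups: 12 of 12 passed the expression minimum and their summed FPKM was 15000 to 17300 with TWEAK and 17400 to 18800 untreated, although the labels call the cell type myoblast. Of these 12, 4 fell with TWEAK (limma, adjusted p under 0.05, against 6.1% of all tested genes) and 0 rose (against 8.98%). Of 10 genes of undifferentiated or cycling cells, 5 rose (Cd34, Ccnd1, Top2a, Mki67 and Msc) and 4 fell (Id1, Id3, Heyl and Myf5), beside the same shares. These 10 genes summed to 107 to 136 FPKM with TWEAK and 93.5 to 117 untreated. The 5 endothelial markers summed to 0.0585 to 0.0796 FPKM with TWEAK and 0.0671 to 0.104 untreated, and Tie1 among them was listed at 0 throughout. The 6 macrophage and leukocyte markers summed to 5.25 to 6.51 FPKM with TWEAK and 4.26 to 4.78 untreated, with Adgre1 at 0 and Cd14 higher with TWEAK (limma adjusted p = 0.0142). Only 2 of these 6 passed the expression minimum, and Cd14 was the only 1 called. The 5 adipocyte markers summed to 6.77 to 9.06 FPKM with TWEAK and 7.49 to 9.16 untreated, with Plin1 at 0 and Pparg lower with TWEAK (limma adjusted p = 0.0245). Of these 5 only 2 were tested, and the other, Cebpa, was at 5.85 ± 0.929 FPKM with TWEAK and 5.34 ± 0.72 untreated (limma adjusted p = 0.572). The 5 fibroblast markers summed to 53.1 to 82.3 FPKM with TWEAK and 68.4 to 87.9 untreated, with 1 of them, Col1a1, lower with TWEAK (limma adjusted p = 0.00428). Of the 4 tested, 1 had a log2 fold change above 0 (Pdgfra, limma adjusted p = 0.728). The 5 genes chosen to check the TWEAK response all rose, with the monocyte chemokine gene Ccl2 at 125 ± 28.8 FPKM with TWEAK and 1.95 ± 0.526 untreated (mean ± SD, n = 3 per group; limma adjusted p = 1.61e-06). In bulk RNA, fewer cells of a type and less RNA per cell cannot be told apart, and whether the shifts in these marker genes contributed to the results below was not tested.

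With TWEAK, most mitochondrial ribosomal protein transcripts stood slightly higher, and few passed an adjusted p of 0.05 when group was the sole term. The log2 fold change, TWEAK over untreated on log2(FPKM + 1), was above 0 for 75 of 78 members (96.2%, against 52.3% of the 12770 genes tested), with a median of 0.129 against 0.011 over all tested genes. Of the 78, 6 rose and 0 fell by limma at an adjusted p of 0.05, which is 7.69% of the members where 8.98% of all tested genes were called higher and 6.1% lower. The share called was thus near the background. The number that fell was also 0 at an unadjusted p under 0.05. With limma-voom on the recovered reads, 5 rose (against 9.54% of all tested genes) and 0 fell (against 7.08%), and with the block added to it 21 rose (against 16.6%). The members' fold changes ran from -0.05 for Mrps14 to 0.36 for Mrpl12. All 3 TWEAK libraries lay above all 3 untreated ones in 30 members (38.5%, against 20.0% of all tested genes), and all 3 lay below in 0 (against 15.9%). All 78 members passed the minimum of 0.5 mean FPKM. With trial as a replicate block, 16 rose (20.5%, against 15.4% of all tested genes) and 0 fell (against 12.5%). Without TWEAK replicate 1 the count was 13, and without each of the other 5 libraries it lay between 1 and 4, as given per gene below. Over all tested genes 1266 were called higher without TWEAK replicate 1, and 501 to 958 without each of the others, against 1147 with all 6 libraries.

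**Figure D1:**
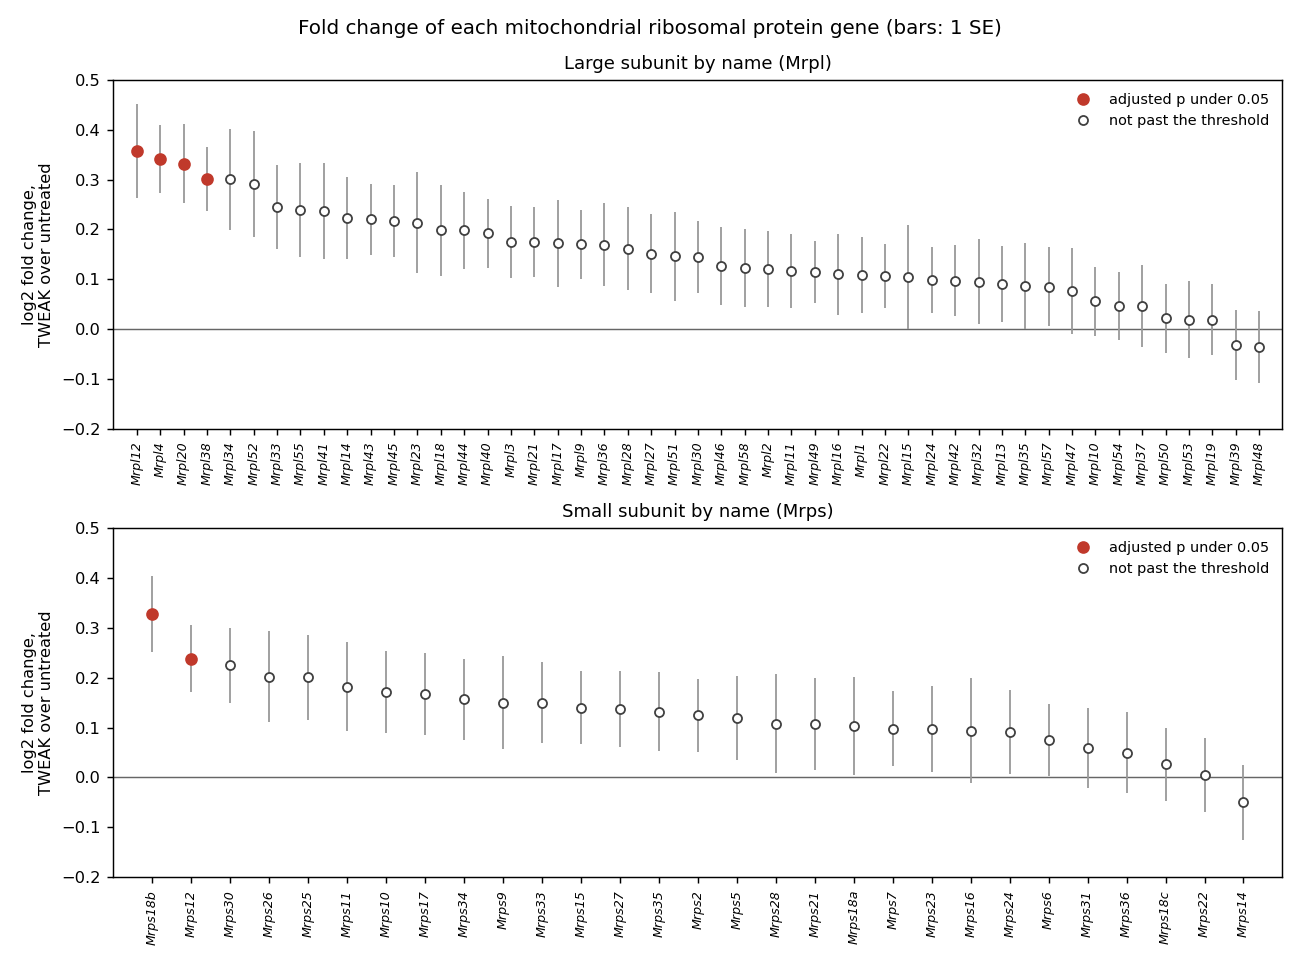
Log2 fold change (TWEAK over untreated, log2(FPKM + 1) scale, y axis) of each of the 49 Mrpl genes (top) and 29 Mrps genes (bottom), in falling order, with bars of 1 SE from the limma fit. Filled points mark the 6 genes past an adjusted p of 0.05, and only Mrpl39, Mrpl48 and Mrps14 lie below 0.

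The large-subunit genes that rose included Mrpl4, whose protein lines the exit tunnel (ENSMUSG00000003299.11, GRCm39 chromosome 9, 20914034 to 20920135). Mrpl4 had 15.2, 16.8 and 16.6 FPKM in TWEAK replicates 1, 2 and 3, against 12.9, 12.7 and 12.1 FPKM in untreated replicates 1, 2 and 3. Every TWEAK library lay above every untreated one, and the mean was 16.2 ± 0.866 FPKM with TWEAK and 12.6 ± 0.437 untreated, a ratio of 1.29 (log2 fold change 0.34, SE 0.07, limma adjusted p = 0.011). Without TWEAK replicate 2 its limma adjusted p was 0.0596, and it stayed under 0.05 without each other library. Mrpl38, a mitochondria-specific protein of the central protuberance, the crown of the large subunit facing the other subunit (chromosome 11, 116022643 to 116029694), had 43.8, 43.1 and 46.6 FPKM with TWEAK, against 37.3, 34.9 and 35.5 FPKM untreated. The groups did not overlap here either, and the mean was 44.5 ± 1.89 FPKM with TWEAK and 35.9 ± 1.22 untreated (log2 fold change 0.30, SE 0.06, limma adjusted p = 0.014, and 0.0558 without untreated replicate 2).

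Mrpl12 encodes the flexible stalk protein that recruits translation factors, the counterpart of bacterial L7/L12 (chromosome 11, 120375439 to 120379891). It had 47.1, 52.2 and 61.0 FPKM with TWEAK, against 43.1, 41.4 and 39.4 FPKM untreated. TWEAK replicate 3 was clearly the highest, and the groups did not overlap. The fold change was the highest of the family in this fit (log2 0.36, SE 0.09, limma adjusted p = 0.0329), yet of the fits that left out 1 library it passed only the one without TWEAK replicate 1. Its limma adjusted p was 0.0516 to 0.0982 without each of the others, with a log2 fold change of 0.26 without TWEAK replicate 3. Mrpl4 stood above it there (0.32), with limma-voom and with the length trend subtracted. Mrpl10, which anchors this stalk to the ribosome, was at 27.0 ± 1.71 FPKM with TWEAK and 25.9 ± 0.809 untreated (limma adjusted p = 0.633), and the stalk-base gene Mrpl53 was at 71.5 ± 6.72 FPKM with TWEAK and 70.4 ± 1.78 untreated (limma adjusted p = 0.891). The log2 fold changes of the 4 stalk genes ran from 0.02 to 0.36.

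Mrpl20 encodes a protein that holds ribosomal RNA of the large subunit and has a bacterial counterpart (chromosome 4, 155887335 to 155894432). It had 43.4, 49.5 and 51.4 FPKM with TWEAK, against 37.1, 36.7 and 40.2 FPKM untreated. The lowest TWEAK library was still above the highest untreated one (log2 fold change 0.33, SE 0.08, limma adjusted p = 0.0224). This call was lost without TWEAK replicate 2 (limma adjusted p = 0.0973), TWEAK replicate 3 (0.05, just above the threshold) and untreated replicates 1 and 2 (0.0822 and 0.0837).

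Both small-subunit genes that rose have bacterial counterparts. Mrps18b (chromosome 17, 36221271 to 36227281), of the platform of the small subunit, had 24.5, 27.6 and 28.1 FPKM with TWEAK, against 19.7, 21.9 and 21.7 FPKM untreated. Replicate 1 was the lowest in both groups, and the groups did not overlap (log2 fold change 0.33, SE 0.08, limma adjusted p = 0.0206, and 0.0928, 0.0869 and 0.0506 without TWEAK replicate 2, untreated replicate 1 and untreated replicate 2). It is 1 of 3 relatives of bacterial protein S18 in the family, each of which takes a different place in the ribosome. Mrps18c, also of the small subunit, was at 56.9 ± 3.67 FPKM with TWEAK and 55.8 ± 3.09 untreated (limma adjusted p = 0.842), and Mrps18a, whose protein sits in the large subunit despite its name, at 16.3 ± 2.32 FPKM with TWEAK and 15.0 ± 0.925 untreated (limma adjusted p = 0.523). Mrps12, of the decoding centre (chromosome 7, 28439066 to 28441245), had 21.0, 21.6 and 23.6 FPKM with TWEAK, against 18.5, 19.0 and 18.2 FPKM untreated. These groups were separate, but the call was the weakest of the 6 (log2 fold change 0.24, SE 0.07, limma adjusted p = 0.0436). It was lost without each library other than TWEAK replicate 1 (limma adjusted p from 0.0857 to 0.134) and when the length trend described below was subtracted (limma adjusted p = 0.0706).

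**Figure D2:**
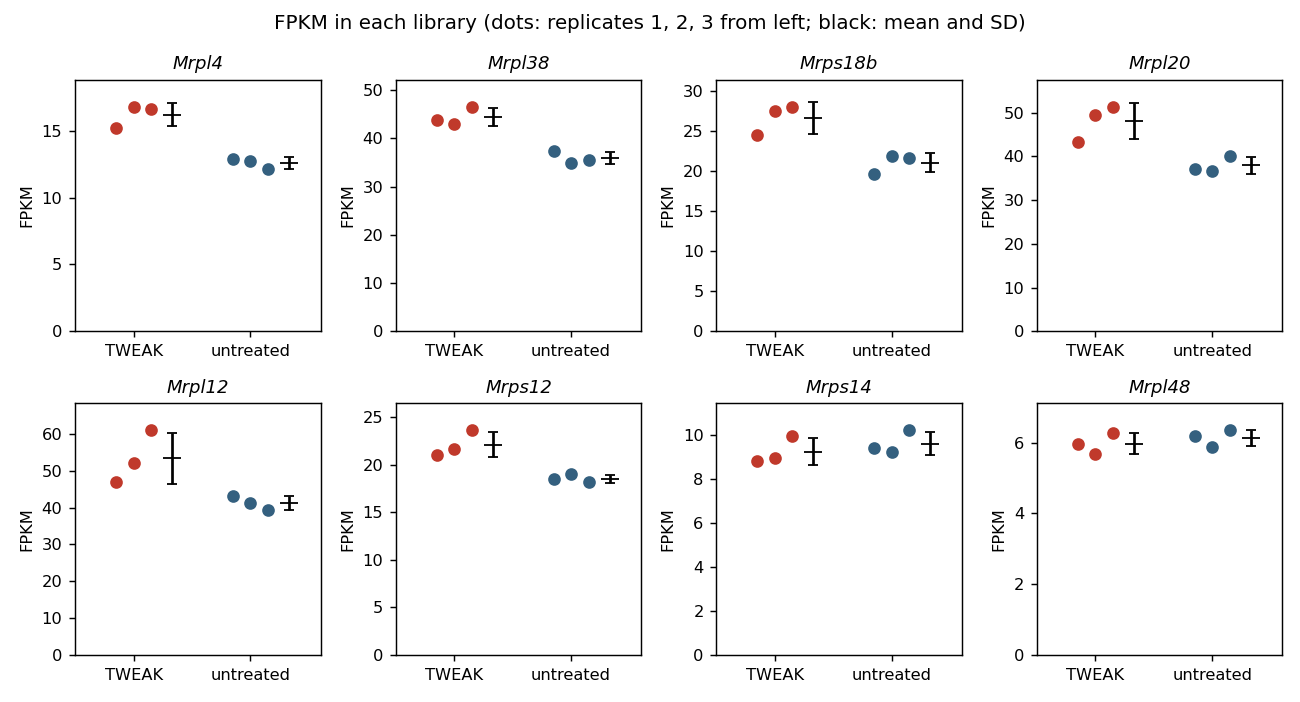
FPKM in each library (y axis, from 0) for the 6 genes that rose and for Mrps14 and Mrpl48, the 2 members lower with TWEAK in all 3 trials, with TWEAK libraries (red) left of untreated ones (blue) and the mean ± SD in black. The groups are separate in the first 6 panels, with Mrpl12 at 47.1 to 61.0 FPKM with TWEAK against 39.4 to 43.1 untreated, and overlap in the panels of Mrps14 and Mrpl48.

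Among the members that missed the threshold, the largest differences were in Mrpl34, Mrpl52 and Mrpl33. Mrpl34, a small protein with a bacterial counterpart, had 28.0, 32.4 and 32.6 FPKM with TWEAK, against 27.4, 26.4 and 21.4 FPKM untreated (log2 fold change 0.30, SE 0.10, limma adjusted p = 0.0788). Mrpl52, a mitochondria-specific protein, had 35.3, 41.5 and 48.7 FPKM with TWEAK, against 33.1, 32.6 and 35.5 FPKM untreated, so that TWEAK replicate 1 lay just below untreated replicate 3 (limma adjusted p = 0.0988). Mrpl33 had 20.9, 24.0 and 25.9 FPKM with TWEAK, against 19.5, 20.5 and 19.0 FPKM untreated (limma adjusted p = 0.0826). All 3 were higher with TWEAK in each trial, and all 3 passed with the replicate block (limma adjusted p = 0.0208, 0.00935 and 0.0218 in the same order). The other 7 that passed with the block and not without it were Mrpl14, Mrpl40, Mrpl41, Mrpl43, Mrpl45, Mrpl55 and Mrps30, of which all but Mrps30 were lost when the length trend was subtracted as well. Mrpl33, Mrpl34, Mrpl43, Mrpl45 and Mrpl52 also passed without the block when TWEAK replicate 1 was left out. Mrpl45, which tethers the ribosome to the inner membrane, had 24.2, 25.6 and 28.0 FPKM with TWEAK, against 22.5, 22.5 and 21.4 FPKM untreated (limma adjusted p = 0.0724, 0.0303 with the block, and 0.0527 with the block and the length trend subtracted).

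At the other end, 3 members had a fold change under 0. The small-subunit head gene Mrps14 had 8.83, 8.96 and 9.94 FPKM with TWEAK, against 9.40, 9.20 and 10.2 FPKM untreated. Each TWEAK library was below the untreated library of its trial, but the groups overlapped (log2 fold change -0.05, SE 0.07, limma adjusted p = 0.702). Likewise, the central protuberance gene Mrpl48 was lower in each trial, at 5.97, 5.68 and 6.27 FPKM with TWEAK, against 6.18, 5.89 and 6.35 FPKM untreated (limma adjusted p = 0.787). Mrpl39, of the exit-tunnel region, was at 21.9 ± 0.705 FPKM with TWEAK and 22.4 ± 1.55 untreated (limma adjusted p = 0.802). A miss of the threshold does not show that these genes did not differ.

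A few members do more than build the ribosome. Mrpl58 encodes a peptidyl-tRNA hydrolase that frees chains from stalled ribosomes and is itself a structural protein of the large subunit. It had 10.7, 10.4 and 12.0 FPKM with TWEAK, against 9.41, 10.4 and 10.3 FPKM untreated (limma adjusted p = 0.323). Mrps30, a large-subunit protein by structure, had 8.09, 8.21 and 9.35 FPKM with TWEAK, against 7.02, 7.16 and 7.30 FPKM untreated. Its groups did not overlap, and it passed with the block (limma adjusted p = 0.0766, and 0.0253 with the block). Mrps36, which has been reassigned to the 2-oxoglutarate dehydrogenase complex and is kept here because of its name, was at 23.2 ± 2.36 FPKM with TWEAK and 22.3 ± 1.02 untreated (limma adjusted p = 0.728).

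The members' levels differed far more between genes than between treatments. Mean FPKM over the 6 libraries, a per-length level, ran from 3.34 for Mrps35 to 106 for Mrps21, a 31.7-fold range, with a median of 19.9 against 8.58 over all tested genes, and 65 of 78 lay above that median. The highest members were Mrps21, Mrps18c and Mrps23 of the small subunit and Mrpl53, Mrpl14 and Mrpl24 of the large one. Mrps21 had 96.9, 109 and 124 FPKM with TWEAK, against 97.3, 102 and 105 FPKM untreated, so that the groups overlapped (limma adjusted p = 0.472). Mrps23 was at 58.0 ± 6.92 FPKM with TWEAK and 53.9 ± 1.80 untreated, Mrpl14 at 68.9 ± 6.81 with TWEAK and 58.7 ± 2.75 untreated, and Mrpl24 at 55.6 ± 3.21 with TWEAK and 51.8 ± 1.04 untreated (limma adjusted p = 0.496, 0.102 and 0.351 in the same order). The lowest were Mrps35, Mrps25 and Mrps16, and Mrpl23, Mrpl35 and Mrpl17. Mrps35 was at 3.54 ± 0.247 FPKM with TWEAK and 3.14 ± 0.160 untreated, and Mrpl23, which lies at the tunnel exit, at 3.93 ± 0.630 with TWEAK and 3.24 ± 0.200 untreated (limma adjusted p = 0.299 and 0.189 in the same order). Mrps25, Mrps16, Mrpl35 and Mrpl17 had limma adjusted p of 0.151, 0.597, 0.54 and 0.215. Levels fell with gene length among the members (Spearman rho -0.803 over 78 genes), where it was -0.028 over all tested genes. FPKM divides by that same length, so the points share it.

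As subunits, the summed FPKM of the 49 Mrpl genes was 1209.1, 1286.0 and 1420.1 with TWEAK, against 1164.0, 1152.7 and 1152.4 untreated. That of the 29 Mrps genes was 619.8, 655.3 and 738.9 with TWEAK, against 614.0, 610.4 and 622.4 untreated. The large-subunit sums did not overlap between groups, while the small-subunit sum of TWEAK replicate 1 lay within the untreated range. The FPKM of all genes added up to 376609, 383325 and 410814 in TWEAK replicates 1, 2 and 3. Untreated, it was 382836, 386152 and 386763. The subunit sums were not scaled to these totals, so that overlap does not set the subunits apart. The median log2 fold change was 0.1453 over the large-subunit genes and 0.1247 over the small-subunit ones. Over all members the sum was 1980 ± 168 FPKM with TWEAK and 1770 ± 7.87 untreated (n = 3 each), a ratio of 1.115, with 1.129 for the large and 1.091 for the small subunit. The small-to-large ratio of sums was 0.5126, 0.5096 and 0.5203 with TWEAK, against 0.5275, 0.5296 and 0.5401 untreated. It was lower in every TWEAK library than in every untreated one, with a difference of -0.0182 between means, or -0.0161 when Mrps18a and Mrps30 were counted with the large subunit and Mrps36 with neither. No test was made of these scores over chosen genes.

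**Figure D3:**
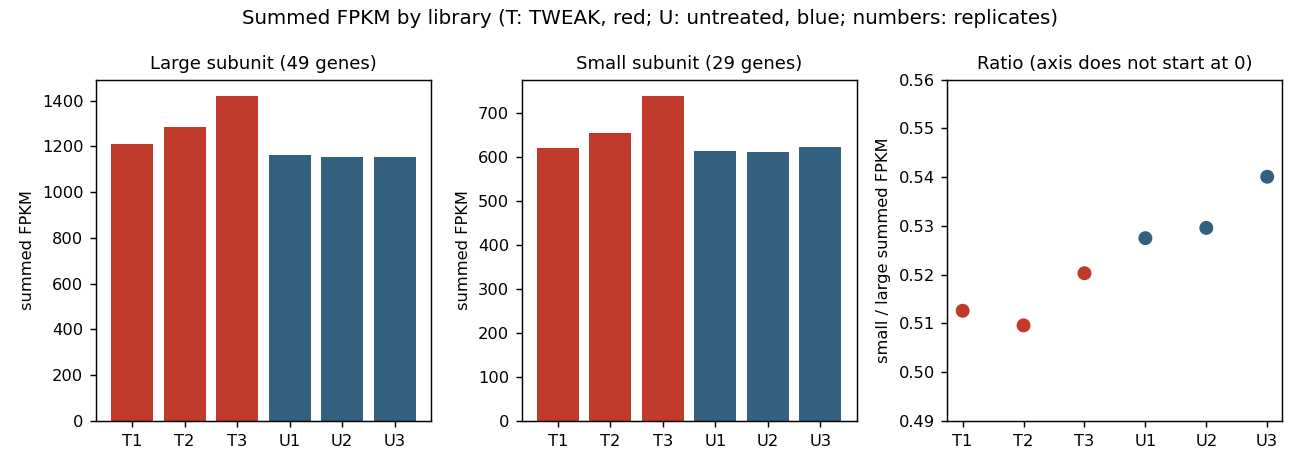
Summed FPKM of the large-subunit genes (left, bars from 0) and the small-subunit genes (middle, bars from 0), and the ratio of small to large (right, axis from 0.49), in each library, with TWEAK libraries (T, red) left of untreated ones (U, blue). Both sums are highest in TWEAK replicate 3, and the 3 TWEAK ratios, 0.5096 to 0.5203, lie below the 3 untreated ones, 0.5275 to 0.5401.

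By origin, the 47 members with a bacterial counterpart had a median log2 fold change of 0.1247, with 5 called higher, and the 30 mitochondria-specific ones 0.1345, with 1 called higher. Over all tested genes 8.98% were called higher. With the replicate block each of these 2 classes had 8 called higher, against 15.4% of all tested genes. By place in the ribosome, the median was 0.160 over 6 central protuberance genes, 0.152 over 8 genes of the exit-tunnel region, 0.0865 over 4 stalk genes, 0.111 over 6 genes of the small-subunit head, 0.124 over 6 of its platform and 0.143 over 4 of its body and decoding centre. Each of these groups other than the head held 1 gene that rose. Differences between these groups were not tested.

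TWEAK replicate 3 stood apart from the other TWEAK libraries. It was the highest of the 6 libraries in 69 of 78 members, against 26.3% of all tested genes. The median deviation of the members from their gene mean (log2) was -0.0335, 0.0469 and 0.196 in TWEAK replicates 1, 2 and 3, against -0.0764, -0.0727 and -0.0714 in untreated replicates 1, 2 and 3. The untreated libraries were thus alike, and the TWEAK libraries spread over a wide range. Between TWEAK and untreated libraries of the same trial, the median log2 difference was 0.0346, 0.124 and 0.242 in trials 1, 2 and 3, with 55, 71 and 74 members higher with TWEAK. Over all tested genes the medians were -0.0012, 0.0147 and 0.0159, with 49.8%, 52.7% and 52.6% higher. A total of 54 members were higher with TWEAK in all 3 trials, a count for which the share of all tested genes was not computed. Without TWEAK replicate 3 the members' median log2 fold change fell to 0.0700, 64 members lay above 0 and 3 rose (Mrpl38, Mrpl4 and Mrps18b), against 7.49% of all tested genes.

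**Figure D4:**
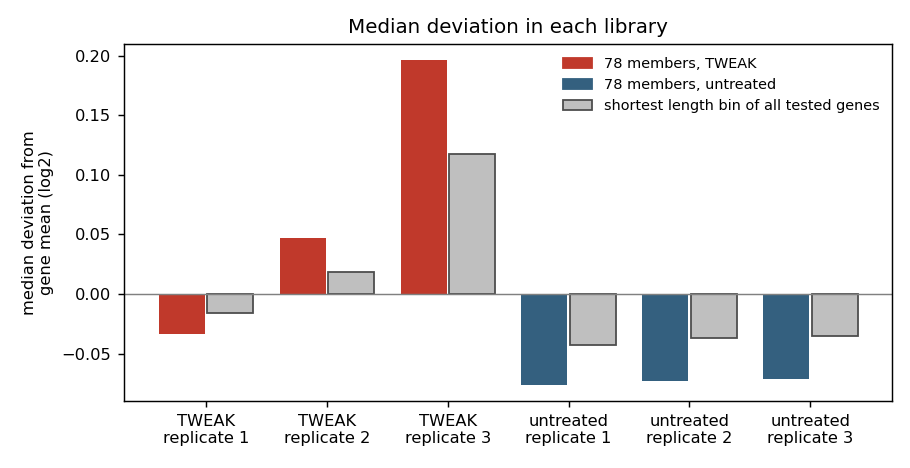
Median deviation from the gene mean (log2, y axis) of the 78 members (coloured bars) and of all tested genes in the shortest of 5 length bins (grey bars) in each library, TWEAK libraries on the left. The members stand at 0.196 in TWEAK replicate 3, where the short genes stand at 0.1175, and between -0.0764 and -0.0714 in the untreated libraries.

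Gene length moved with the fold change across the whole table. Over the 12770 tested genes Spearman's rho between length and log2 fold change was -0.256, and over the 78 members it was -0.169; genes of one library share its depth and RNA quality, so these are descriptions. The members were short, with a median of 1866.5 bases (488 to 7300) against 3139 over all tested genes, and 58 of 78 (74.4%) were shorter than that median. Of all tested genes in the shortest of 5 length bins (up to 1633 bases), 64.1% had a fold change above 0, with a median of 0.0639 and 10.9% called higher. In the longest bin the median was -0.089, and 30.1% lay above 0. TWEAK replicate 3 had the steepest slope of the 6 libraries, with a median deviation of 0.1175 in the shortest bin and -0.1284 in the longest. In the same 2 bins the deviation was -0.0161 and 0.011 in TWEAK replicate 1, and 0.0189 and -0.0096 in TWEAK replicate 2. For untreated replicates 1, 2 and 3 it was -0.043, -0.0368 and -0.0348 in the shortest bin, and 0.0554, 0.0396 and 0.0338 in the longest. The deviations of a gene sum to 0 over the 6 libraries, so these slopes are not independent.

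Within each length bin the members' median was above that of all tested genes. From the shortest bin to the longest, it was 0.1655 over 34 members, 0.124 over 17, 0.0965 over 12, 0.149 over 12 and 0.172 over 3, against 0.0639, 0.0545, 0.0247, -0.0072 and -0.089 over all tested genes. When the trend over length was subtracted from each library, the members' median was 0.0835, 67 of 78 lay above 0, and 5 rose (against 8.62% of all tested genes): Mrpl4, Mrpl38, Mrps18b, Mrpl20 and Mrpl12. With the replicate block as well, 14 rose, against 14.7% of all tested genes. Of the 16 called with the block alone, 10 were among these 14, and the other 4 were Mrpl3, Mrpl17, Mrps17 and Mrps25. Without TWEAK replicate 3 and with the trend subtracted, a setting chosen after seeing the data, the median was 0.0512 and Mrpl38 and Mrpl4 rose. How far transcript integrity or other properties of a library set this trend was not tested.

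**Figure D5:**
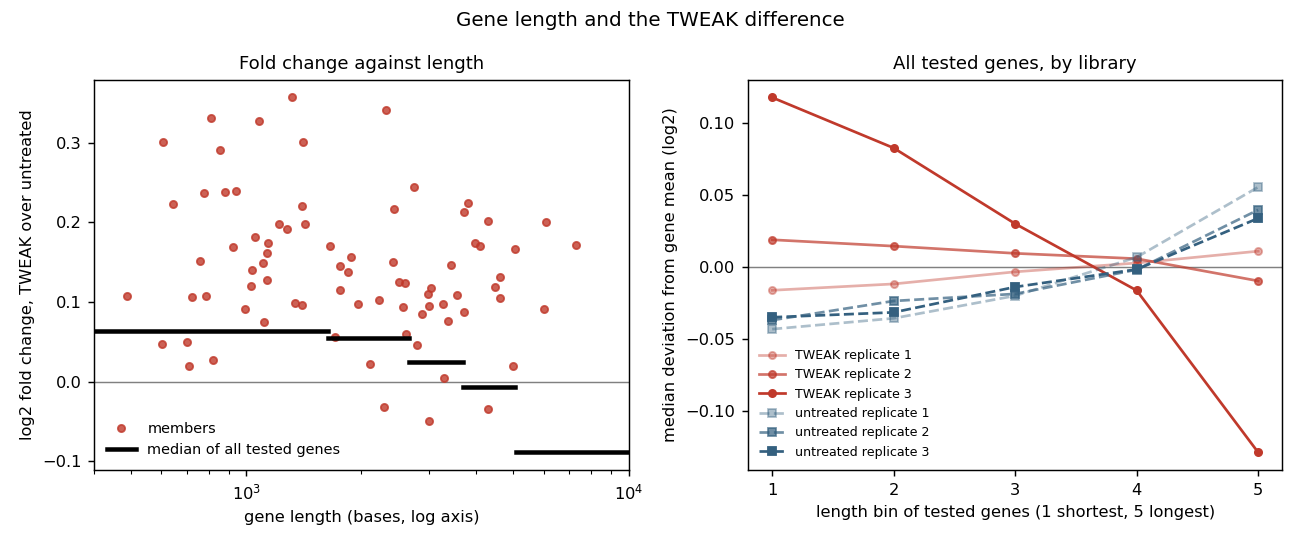
Left: log2 fold change (TWEAK over untreated, y axis) of each member against gene length (bases, log axis), with black lines for the median of all tested genes in each of the 5 length bins, the outer lines ending at the axis limits. Right: median deviation from the gene mean (log2) of all tested genes in each length bin, by library, where TWEAK replicate 3 runs from 0.1175 to -0.1284 and the untreated libraries run the other way. The deviations of a gene sum to 0 over the 6 libraries, so opposite slopes are partly set by each other.

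The promoters of the members were read for letters of factors known to drive nuclear genes of mitochondria, since NRF1, the ETS factor GABP and YY1 act on many of them. A RefSeq window (GRCm38.p6) was held for 69 of 78 members, and the 250 bases before the start were searched on both strands. The NRF1 letters GCGCANGCG stood in 13 of 69 windows (18.8%, against 5.33% of 27025 windows), the ETS letters CCGGAAG in 17 (24.6%, against 7.05%) and the YY1 letters AAGATGGC in 4 (5.8%, against 1.59%). The NF-kB letters GGGANTTTC stood in 0 (against 0.977%), a share so low that 69 windows cannot show an absence. At least 1 of these motifs stood in 31 member windows (44.9%, against 13.8% of all). The 27025 windows were not limited to expressed or protein-coding genes, as the members are, so these shares are not from a matched set. A match is not evidence of binding, and letters outside these windows were not searched. The windows below are those of the genes that rose (where a window was held with at most 30 bases in annotated exons), of the members with more than 1 kind of motif under that limit, and of Mrps14, the lowest fold change. Capitals mark motif matches, which do not overlap in these windows, and each runs 5′ to 3′ on the strand of its gene. They lie at chr4:155802628-155802877 (plus strand) for Mrpl20, chr11:120484387-120484636 (plus strand) for Mrpl12, chr7:105811088-105811337 (minus strand) for Mrpl17, chr11:58171414-58171663 (plus strand) for Mrpl22 and chr1:160194965-160195214 (plus strand) for Mrps14.
Mrpl20: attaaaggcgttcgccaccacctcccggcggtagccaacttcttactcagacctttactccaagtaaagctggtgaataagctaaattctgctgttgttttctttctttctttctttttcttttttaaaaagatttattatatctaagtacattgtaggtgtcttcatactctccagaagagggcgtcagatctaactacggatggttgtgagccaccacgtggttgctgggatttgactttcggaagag
Mrpl12: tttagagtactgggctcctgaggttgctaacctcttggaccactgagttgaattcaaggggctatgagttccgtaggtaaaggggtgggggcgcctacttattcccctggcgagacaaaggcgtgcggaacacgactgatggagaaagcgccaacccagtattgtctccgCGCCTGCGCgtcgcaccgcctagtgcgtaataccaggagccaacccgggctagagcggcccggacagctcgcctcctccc
Mrpl17: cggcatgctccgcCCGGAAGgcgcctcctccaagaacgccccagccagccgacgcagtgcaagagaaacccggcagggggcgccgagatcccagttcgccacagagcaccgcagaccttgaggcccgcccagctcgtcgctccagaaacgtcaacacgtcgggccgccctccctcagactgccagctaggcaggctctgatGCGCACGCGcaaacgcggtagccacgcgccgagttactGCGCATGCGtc
Mrpl22: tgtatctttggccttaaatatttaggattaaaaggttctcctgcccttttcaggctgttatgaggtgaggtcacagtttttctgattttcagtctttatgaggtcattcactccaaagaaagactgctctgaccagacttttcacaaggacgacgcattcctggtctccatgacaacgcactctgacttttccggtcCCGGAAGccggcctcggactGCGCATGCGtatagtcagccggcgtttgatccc
Mrps14: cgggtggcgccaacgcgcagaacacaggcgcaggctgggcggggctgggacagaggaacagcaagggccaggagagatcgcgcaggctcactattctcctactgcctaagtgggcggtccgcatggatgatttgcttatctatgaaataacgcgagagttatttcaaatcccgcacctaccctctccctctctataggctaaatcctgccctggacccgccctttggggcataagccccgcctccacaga

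The Mrpl12 window held the NRF1 letters 80 to 72 bases before the start, and those of Mrpl20 and Mrps14 none of the 4 motifs. Of the other genes that rose, Mrps18b held NRF1 letters and Mrps12 YY1 letters in windows left unprinted by the exon limit. Mrpl4 and Mrpl38 had no window. Mrpl17, with NRF1 letters at 49 to 41 and at 11 to 3 bases and ETS letters at 237 to 231 bases before its start, was at 6.30 ± 0.639 FPKM with TWEAK and 5.47 ± 0.353 untreated (limma adjusted p = 0.215). Mrpl22, of the exit tunnel, with NRF1 letters 33 to 25 and ETS letters 53 to 47 bases before its start, had 32.6, 33.5 and 36.2 FPKM with TWEAK, against 31.7, 32.1 and 30.9 FPKM untreated. Its groups did not overlap, but it missed the threshold (limma adjusted p = 0.304). Divergent neighbours were common. In 26 of 69 members (37.7%, against 12.3% of all genes in the promoter table) another gene started within 1000 bases on the other strand. Those genes too were not limited to expressed or protein-coding ones. Of the 24 neighbours tested, 4 rose (Eme1, Twnk, Ncapd2 and Ska3, where 8.98% of all tested genes rose) and 0 fell, with a median log2 fold change of 0.12. The 24 include Mrps11 and Mrpl46, which neighbour each other and are members themselves. Twnk, the mitochondrial DNA helicase gene beside Mrpl43, had a log2 fold change of 0.23 (limma adjusted p = 0.0388), where Mrpl43 had 0.22 (limma adjusted p = 0.0681). The spans of Twnk and Mrpl43 overlap by 780 bases, and whether shared reads link their values was not tested. Mrps11 and Mrpl46, members of different subunits, start 42 bases apart and had log2 fold changes of 0.18 and 0.13 (limma adjusted p = 0.203 and 0.311).

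The genes that work with the mitochondrial ribosome were read from lists made for this purpose. Over all tested genes 8.98% were called higher and 6.1% lower, and the counts below stand beside those shares. A count of 0 lower in these lists was also 0 at an unadjusted p under 0.05 and with limma-voom. Of 5 mitoribosomal proteins outside the naming rule (Dap3, Ptcd3, Chchd1, Aurkaip1 and Gadd45gip1), 0 changed with adjusted p under 0.05 (limma; 1 at an unadjusted p under 0.05, 0 with limma-voom and 1 with the block), with a median log2 fold change of 0.0872. Chchd1, the nearest, was at 56.4 ± 7.47 FPKM with TWEAK and 47.1 ± 1.67 untreated (limma adjusted p = 0.107, and 0.0176 with the block). Of 14 tested translation factors and tRNA modifiers 1 rose and 0 fell. This was Gtpbp3, which modifies mitochondrial tRNA wobble bases, with 10.5, 10.9 and 10.1 FPKM with TWEAK, against 7.83, 7.32 and 6.85 FPKM untreated (log2 fold change 0.47, SE 0.07, limma adjusted p = 0.00407, and at most 0.0237 without any 1 library). The elongation factor gene Tufm was at 51.0 ± 5.34 FPKM with TWEAK and 42.9 ± 0.883 untreated (limma adjusted p = 0.0762).

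Of 28 genes for assembly and ribosomal RNA modification, 4 rose and 0 fell, with 24 above 0 and a median of 0.128. The list held Bop1, a factor of the cytosolic ribosome, which did not pass (limma adjusted p = 0.204). C1qbp, a matrix protein needed for mitochondrial translation, was at 58.3 ± 5.61 FPKM with TWEAK and 44.6 ± 0.566 untreated (limma adjusted p = 0.0129). Rpusd4, a pseudouridine synthase gene, was at 7.74 ± 0.257 FPKM with TWEAK and 6.02 ± 0.219 untreated (limma adjusted p = 0.0157). The rRNA methyltransferase gene Mrm3 was at 10.6 ± 1.15 with TWEAK and 7.86 ± 0.640 FPKM untreated, and Rcc1l at 10.5 ± 0.652 with TWEAK and 8.46 ± 0.510 FPKM untreated (limma adjusted p = 0.0232 and 0.0377). Each of these 4 calls was lost without 2 to 5 of the single libraries.

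Of 22 genes for charging mitochondrial tRNA, 1 rose and 1 fell. The list held 19 aminoacyl-tRNA synthetase genes, among them Gars and Kars, which also serve the cytosol, and 3 amidotransferase subunit genes (Qrsl1, Gatb and Gatc). Nars2, which charges asparagine tRNA, was the largest change among these lists of the translation machinery, with 5.34, 5.19 and 4.93 FPKM with TWEAK, against 8.62, 8.27 and 7.70 FPKM untreated. Its groups lay far apart (log2 fold change -0.58, SE 0.07, limma adjusted p = 0.00134, and at most 0.0115 without any 1 library). Cars2, for cysteine, was at 5.45 ± 0.0984 FPKM with TWEAK and 4.26 ± 0.339 untreated (limma adjusted p = 0.032), a call lost without 5 of the 6 single libraries (up to 0.112). Of 17 genes for mitochondrial transcription and RNA processing, 1 rose and 0 fell: Tfam, which packages and transcribes mitochondrial DNA, at 13.3 ± 0.118 FPKM with TWEAK and 10.4 ± 1.02 untreated (limma adjusted p = 0.0215, a call lost without 3 of the single libraries, up to 0.0774).

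The transcripts that this ribosome translates gave no calls in either direction. Of 12 tested mitochondrially encoded protein genes, 0 rose and 0 fell by limma with adjustment (0 at an unadjusted p under 0.05, and 0 with the block or with limma-voom on recovered reads), 4 lay above 0, and the median log2 fold change was -0.0578. Of these, mt-Co2, mt-Co3, mt-Atp6, mt-Atp8 and mt-Nd3 had group means of 0.416 to 3.27 FPKM, where mt-Co1 was at 5220 ± 514 FPKM with TWEAK and 5650 ± 921 untreated, and whether such low values reflect those transcripts was not tested. Over the other 7, 3 lay above 0 and the median was -0.0282. Their summed FPKM was 16700 to 20400 with TWEAK and 16400 to 22400 untreated. The mitochondrial ribosomal RNA genes are not analysed here. Among regulators of mitochondrial gene programmes, 1 of 9 tested rose and 0 fell: Myc, a transcription factor of growth whose targets include mitochondrial genes, with 10.5, 11.8 and 12.7 FPKM with TWEAK, against 6.86, 6.38 and 7.02 FPKM untreated (log2 fold change 0.71, SE 0.08, limma adjusted p = 0.0009). Nrf1 itself was at 7.11 ± 0.281 FPKM with TWEAK and 6.68 ± 0.492 untreated (limma adjusted p = 0.515), and Gabpa at 15.3 ± 0.521 FPKM with TWEAK and 17.0 ± 1.39 untreated (limma adjusted p = 0.245). Ppargc1a, the gene of PGC-1α, was under the expression minimum, at 0.268 ± 0.0515 FPKM with TWEAK and 0.483 ± 0.0855 untreated.

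A list of genes for insertion into the inner membrane and for protein folding and turnover in mitochondria had the highest share of calls among these mitochondrial lists. Of its 12 genes 6 were higher (against 8.98% of all tested genes) and 0 lower (against 6.1%), with a median log2 fold change of 0.1885. The chaperonin genes Hspd1 and Hspe1 led these calls. Hspd1 was at 135 ± 13.9 FPKM with TWEAK and 97.5 ± 7.44 untreated, and Hspe1 at 120 ± 14.7 with TWEAK and 88.3 ± 9.88 untreated (limma adjusted p = 0.0121 and 0.025). The protease genes Lonp1 and Clpp rose (limma adjusted p = 0.0251 and 0.0353), as did the prohibitin genes Phb2 and Phb (limma adjusted p = 0.0314 and 0.0393). All 6 calls were lost without between 2 and 5 of the single libraries, and Oxa1l, the insertase that receives chains from the mitochondrial ribosome, did not pass (limma adjusted p = 0.487). In the authors' deposited table, 15 members were higher at an adjusted p of 0.05 and 0 lower, against 11.2% and 9.38% of the 15293 genes with an adjusted p there, and 75 members had a fold change above 0. That table gave an adjusted p of 0.05944 for Mrps12 and called the other 5 genes that rose.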

How the data were processed

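The members and all gene lists were chosen with earlier results of these data known. The submitters' processing notes name genome build GRCm39, the trimmer Trim Galore (0.5.0), the aligner STAR (2.6.0c), the counter HTSeq (0.6.1p2) and DESeq2 (1.22.2). Not given in the sources used here are their settings, the annotation release and whether counting used strand. The deposited table gives FPKM per library, to which the authors applied one size factor per library, as the values show. It also holds the authors' comparison as a log2 fold change, its standard error, a test score and an adjusted p-value, per the file headers, and the authors' mean normalized count as a signal. For 2337 genes at 0 in each of the 6 libraries that mean exceeds 0, which means that further libraries, not analysed here, entered the authors' fit.

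Whole reads and gene lengths were recovered from the steps of the FPKM values: all 126386 values above 0 were whole within a relative tolerance of 1e-06. For some genes, though 0 members, a common factor was assumed, so library totals rest on that. Lengths and levels depend on the authors' gene models.

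The design named a count test for counts and limma-trend for FPKM, so limma was fitted to log2(FPKM + 1) for 12770 genes with mean FPKM no lower than 0.5. Group was the sole term, with Benjamini-Hochberg adjusted two-sided p-values at 0.05 (limma 3.58.1, R 4.3.3, Python 3.11.15). The fit, the length correction (lowess of each library's deviations over log10 length, span 0.3) and the recovery were tested on simulated data. Alternatives were other pseudocounts, filters and scalings, the length correction, limma-voom on recovered reads, a block for trial and leaving out each library. Trial numbers were taken to pair libraries because libraries of one trial deviated together from their group means (correlation 0.473, 0.218 and 0.434 for trials 1, 2 and 3, against at most -0.02 across trials). Deviations from a group mean sum to 0, so the values across trials are partly set by those within trials and are not a separate comparison. Genes named were the 6 that rose, the 3 highest and 3 lowest of each subunit by level, the 3 largest differences past neither threshold in each direction, and members with a role of their own. From other lists up to 4 called genes in each direction were named, and Clpp, Phb, Mki67, Cd14, Pparg, Cebpa, Col1a1, Pdgfra, the mitochondrially encoded genes, Chchd1, Tufm, Bop1, Oxa1l, Nrf1, Gabpa, Ppargc1a, Mrpl45, Mrpl43, Mrpl22, Twnk, Mrps11 and Mrpl46 were chosen after their values were seen. Promoter windows are RefSeq's (GRCm38.p6), and GENCODE M21 exons of that build were used to limit the bases printed.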

Additional observations from a re-analysis of the deposited data

How the results depend on the processing

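The count of members that rose was 2 with no filter on low values, 16 with the replicate block, 14 with the length trend subtracted and the block, 21 with limma-voom and the block, and 2 without TWEAK replicate 3 with the length trend subtracted. It ranged from 1 to 13 when single libraries were left out. It was 5 or 6 with other pseudocounts, a minimum of 2 mean FPKM, other scalings, limma-voom or the length trend subtracted, where Mrps12 was the gene lost. The count of members that fell was 0 in each setting. Over all tested genes, 499 rose and 302 fell with no filter, 1965 and 1598 with the replicate block, 1879 and 1704 with the length trend and block, and 2118 and 1900 with limma-voom and block. They ranged from 501 to 1266 and from 343 to 835 when single libraries were left out. The members' median log2 fold change lay between 0.0512 and 0.1813, their summed ratio between 1.064 and 1.157, and the difference in small-to-large ratio between -0.0213 and -0.0144. For the named members, 469 of the recomputed tests kept their side of the threshold, 22 moved past it, 31 no longer passed and 0 reversed. Depth limits precision in part: counting error was over 0.5 times the fitted SE in 15 of 78 members, and reached 0.686 times for Mrps12.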

Other observations

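The table lists 6 processed pseudogenes named after members. Mrpl27-ps had 14.4, 15.8 and 18.0 FPKM with TWEAK, against 12.9, 14.4 and 14.3 FPKM untreated, and its parent Mrpl27 had 26.3, 28.1 and 32.0 FPKM with TWEAK, against 25.1, 26.4 and 25.7 FPKM untreated (limma adjusted p = 0.176 and 0.235 in that order). Mrpl48-ps was at 5.07 ± 0.173 FPKM with TWEAK and 4.97 ± 0.833 untreated, close to the level of Mrpl48. How the authors' counting assigned reads shared with these copies is not given in the sources used here, so Mrpl27 and Mrpl48 are uncertain. The other 4 pseudogenes were under the expression minimum.

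The spans of 37 members overlap another listed gene, 23 of them a protein-coding one. Mrpl46 and Mrps11 overlap each other by 413 bases, Mrpl43 overlaps Twnk by 780 bases, and Mrps25 overlaps Nr2c2 by 4770 bases. Mrpl4, Mrpl38, Mrpl20, Mrpl12 and Mrps12 overlap no other listed gene, and Mrps18b overlaps a noncoding gene at 0.0299 FPKM.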
